A study of Mus musculus with 4 samples.

Results

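The 9 hedgehog pathway genes described here are Ihh, Ptch1, Smo, Gli1, Gli2, Gli3, Hhip, Boc and Gas1. They were taken by gene name from a table of 47643 genes in the authors' comparison of 2 sorted cell populations of the mouse femoral periosteum, the membrane on the outer surface of bone. All mice carried a heterozygous tamoxifen-inducible Cre at the Sox9 locus (Sox9CreErt2) and a heterozygous Cre-dependent reporter at Rosa26 (Td-Tomato), so both groups share genotype and treatment. The label marks cells that expressed Sox9 when tamoxifen was given, and cells descended from them. Tamoxifen (20 mg/mL) was injected into the abdomen 3 times, 100 µL each, with 48 h between injections. The uninjured femora were collected 2 weeks later. Diaphyses of 18 femora from 9 mice were digested with liberase in 2 collections, and about 10000 cells of each kind, with and without TdTomato, were sorted. Each collection gave 1 library per group, so there are 2 libraries per group, each from pooled mice. P-values therefore rest on how these pools differ; variation from mouse to mouse was not measured.

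Hedgehog ligands are secreted proteins that bind the receptor Ptch1. Free Ptch1 holds the membrane protein Smo inactive, and ligand binding releases Smo at the primary cilium, where Smo turns the Gli transcription factors toward activation of target genes. Gli1, Ptch1 and Hhip are themselves classic target genes, and the Ptch1 and Hhip proteins bind ligand and limit its reach. Boc, Cdon and Gas1 are co-receptors that help present ligand to Ptch1. In the skeleton the main ligand is Ihh, made by prehypertrophic chondrocytes. Gli1 is widely used as a marker of skeletal progenitor cells near cartilage and in periosteum.

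The table holds no column per library. Each gene's 4 library values were solved from its 2 means, its log difference and its maximum. They correspond to whole reads at depths of 32.0 and 41.6 M (M for 1000000 reads) in positive cells, and 17.0 and 74.0 M in negative cells. The values carry no collection number, so each library is called here by its depth. Levels are given as RPM, the reads of a gene per 1000000 reads of depth. In the 74.0 M negative library the highest of the 12 chondrocyte markers, Col11a2, stood at 4.11 RPM. Of the osteoblast markers, Col1a1 stood at 9.36 RPM there against 3170 in the 17.0 M negative library, while Runx2 stood at 30.0 against 22.5. Sox9 itself had 2897 and 1038 reads in the 32.0 M and 41.6 M positive libraries and 312 and 10 in the 17.0 M and 74.0 M negative ones. The groups of 11 of 12 chondrocyte markers did not overlap, with the positive libraries above, beside 22.6% of the 17122 genes with at least 10 reads in 2 libraries. Summed over the list genes whose values could be assigned to libraries, fibroblast and tendon markers (4 of 8) stood at 2060 and 407 RPM in the 32.0 M and 41.6 M positive libraries. They stood at 676 in the 17.0 M negative library and at 1.47 in the 74.0 M one. Chondrocyte markers (6 of 12) stood at 1920 and 585 against 144 and 0.851, and leukocyte markers (3 of 8) at 110 and 1570 against 297 and 860 in the same order. Fewer cells of a type and less RNA per cell cannot be told apart in such samples. By these sums chondrocyte and fibroblast markers were highest in the 32.0 M positive library, as the members were in the assignment used here. The sum of leukocyte markers was lowest there. Most of that sum in the positive libraries was Elane, at 88.3 and 1500 RPM in the 32.0 M and 41.6 M ones. Ptprc, S100a8, S100a9 and Csf1r could not be assigned with certainty. They were higher in the 32.0 M than in the 41.6 M positive library in the assignment used, and lower in the other. The part of these markers in each difference below was not tested.

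No hedgehog member passed the authors' test. Among the members, the inhibitor Hhip had the widest gap between the groups in the reads. How many of all genes have as wide a gap was not counted. In the authors' deposited table all 9 members had a log2 fold above 0, with a median of 0.82. The median was -0.04 over all 47643 genes, which is also the value of a gene without reads, and 0.02 over the 17122 genes with at least 10 reads in 2 libraries. The table's ratio of group means was below 1 for Gli1 (0.835), Gli2 (0.770) and Gli3 (0.836), where a gene without reads has 0.764. Within the table's own signal, their direction thus differed between the log2 fold and the ratio of means. The ratio of mean RPM, positive over negative, was above 1 for Gli1 (1.63), Gli2 (1.51) and Gli3 (2.0). Their direction therefore depends on the scale of the values as well as on the kind of mean. Of the members, 0 of 9 had a step-up FDR below 0.05 (background 0.0063% of genes higher in positive cells). Gas1 was the 1 member with an unadjusted p below 0.05, against 0.894% of all genes in either direction, 0.598% higher and 0.296% lower in positive cells. Limma on 3 log scales of the solved values called 0 members at an adjusted p of 0.05. With an unadjusted p below 0.05 in limma there were 0 members on log2(RPKM + 1) (background 9.46%), 0 on log2(RPKM + 0.1) (background 7.72%) and 1, Hhip, on log2(RPM + 0.5) (background 6.12%). RPKM here divides reads by depth and by the whole genomic span of a gene, introns included. An exact permutation test of 2 against 2 libraries cannot give a two-sided p below 0.33, so none was run.

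Of the 9 members, 8 had at least 10 reads in 2 or more libraries, and Ihh did not. The groups did not overlap, with the positive libraries above, in 2 of these 8, Hhip and Ptch1. This share is close to the 22.6% found over the 17122 genes with as many reads. With 1 library left out, the count was 9 of all 9 members without the 41.6 M positive library (45.2% of those genes) and 8 without the 17.0 M negative one (36.3%). It was 2 without the 32.0 M positive library (31.5%) and 2 without the 74.0 M negative one (37.5%). The members shared another feature in the assignment used here: all 8 were highest in the 32.0 M positive library, as were 36.0% of those genes, and Ihh was too. In 6 of the 8 the level was lowest in the 74.0 M negative library (24.7% of those genes). In 6 of the 8, all but Hhip and Ptch1, the 17.0 M negative library lay above the 41.6 M positive one (48.8% of those genes). The 2 positive values of Boc could not be assigned to libraries with certainty. Its other assignment gives 8.33 and 71.2 RPM in the 32.0 M and 41.6 M positive libraries, beside 25.4 in the 17.0 M negative one. Boc would then be highest in the 41.6 M library, be left out of the count without that library, and be left out of the last count.

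**Figure D1:**
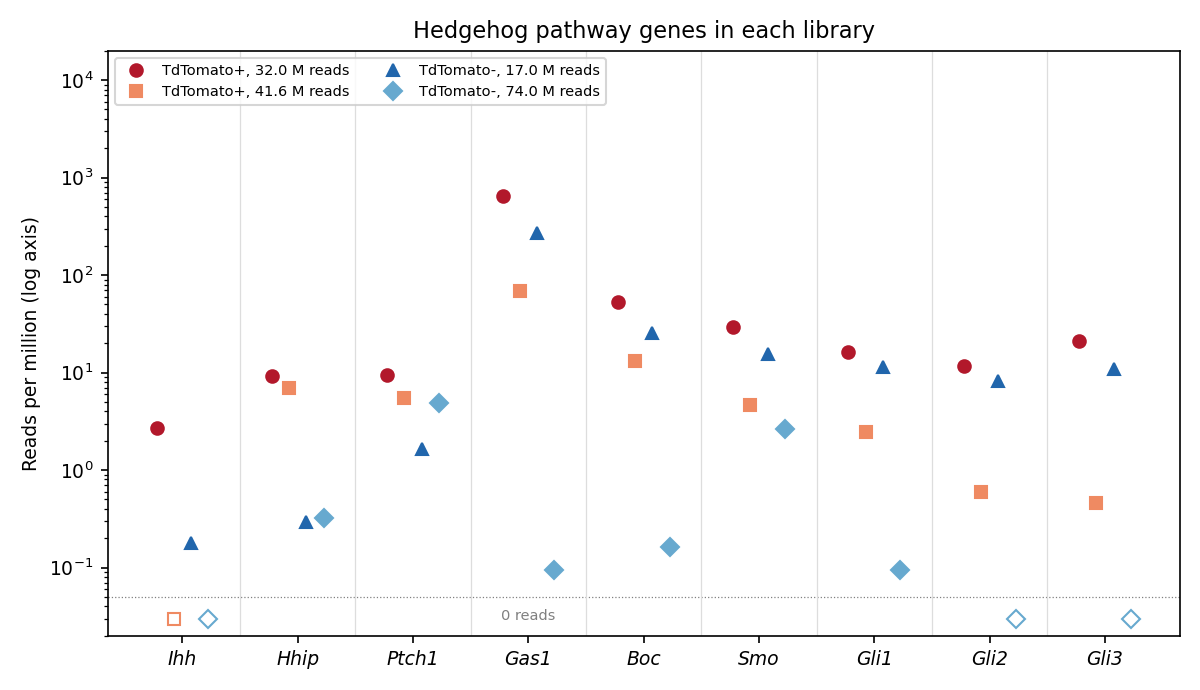
RPM (reads per 1000000 reads of depth, log axis) of the 9 hedgehog pathway genes in each of the 4 libraries; filled points are libraries with reads and open points below the dotted line are libraries with 0 reads. Both red and orange points (TdTomato+) lie above both blue points (TdTomato-) in Hhip and Ptch1, and in the other genes the 17.0 M negative library lies above the 41.6 M positive one. For Boc this holds in the assignment drawn and not in the other.

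Ihh, the ligand, was read almost only in 1 library. Ihh (ENSMUSG00000006538.10, chromosome 1, 74945315 to 74951672, mm10, minus strand) had 87 and 0 reads in the 32.0 M and 41.6 M positive libraries. It had 3 and 0 reads in the 17.0 M and 74.0 M negative ones. The first value is 2.72 RPM, with an exact 95% Poisson interval of 2.18 to 3.36. The 3 reads are 0.177 RPM (0.0364 to 0.516), and the counts of 0 have upper bounds of 0.0887 and 0.0498 RPM by the same interval in the 41.6 M positive and 74.0 M negative libraries (0.0721 and 0.0405 by the simpler limit of 3 reads). These intervals cover counting error only, since the reads carry no molecular identifiers. The groups overlapped, because 1 positive library held no Ihh reads. In the authors' deposited table its log2 fold was 0.98 (p = 0.489, FDR 1.00).

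Hhip, the membrane-anchored protein that captures hedgehog ligands, was higher in both positive libraries by a wide margin. Hhip (ENSMUSG00000064325.3, chromosome 8, 79966115 to 80058006, mm10, minus strand) had 297 and 287 reads in the 32.0 M and 41.6 M positive libraries. It had 5 and 24 reads in the 17.0 M and 74.0 M negative ones. These are 9.30 and 6.90 RPM against 0.295 and 0.324. The lower positive value has a counting interval of 6.12 to 7.74 and the higher negative value one of 0.208 to 0.483, a ratio of 21.3 between them. No other member with 10 reads in 2 libraries had the 2 libraries of each group so near each other. The value of 0.295 rests on 5 reads, with an interval of 0.0956 to 0.687, so the nearness of the negative libraries is loosely measured. The ratio of the group means was 26.2. In limma on log2(RPM + 0.5), a scale added after the data were seen, the log2 fold of Hhip was 3.39 with a standard error of 0.53 (adjusted p = 0.682 over 17122 genes), so it did not pass. With each library left out in turn the same fold ran from 3.19 to 3.60. Both negative values lay below the 0.5 added on this scale, which narrows their spread.

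The authors' deposited table shows this difference as a log2 fold of 0.82 (p = 0.569, FDR 1.00). The table's values are RPKM over the genomic span with an offset of 0.1 added, then divided by depth and span again. Hhip spans 91892 bases. Before the offset and the second division its 4 libraries stood at 0.101, 0.0751, 0.00321 and 0.00353 RPKM, so the offset was as large as its highest value. At least 3 of the 4 libraries lay below the offset in 5 of the 9 members. The authors' group means multiplied by the span were 5.25 and 3.74 for Hhip in positive and negative cells, where a gene without any reads stands at 2.77 and 3.62. The same products were 6.05 and 4.87 for Ptch1, 3.63 and 4.71 for Gli2 and 4.03 and 4.82 for Gli3. They were 9.47 and 4.44 for Ihh, 16.1 and 13.8 for Boc, 22.8 and 22.0 for Smo, 26.8 and 32.1 for Gli1 and 3690 and 2720 for Gas1.

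Ptch1, the receptor that is also a target gene, was separated by group but barely. Ptch1 (ENSMUSG00000021466.11, chromosome 13, 63508328 to 63573598, mm10, minus strand) had 302 and 229 reads in the 32.0 M and 41.6 M positive libraries and 28 and 363 in the 17.0 M and 74.0 M negative ones. These are 9.45 and 5.50 RPM against 1.65 and 4.91. The lower positive value (4.81 to 6.27) and the higher negative value (4.41 to 5.44) have counting intervals that overlap, and their ratio is 1.12. Its log2 fold was 0.48 in the authors' deposited table (p = 0.738, FDR 1.00) and 1.18 with a standard error of 0.72 in limma on log2(RPM + 0.5) (adjusted p = 0.682). In the 74.0 M negative library Ptch1 stood at 51.9% of its level in the 32.0 M positive library, where Gli1 stood at 0.587% and Gas1 at 0.0147%. Fibroblast and tendon markers had 0.0715% there by the same measure.

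The stretches before the gene starts of these 2 members are shown because they are the members whose groups did not overlap. They were read from RefSeq promoter windows of GRCm38.p6 (mm10), which held 7 of the 9 members. Each is given 5′ to 3′ on the gene's strand, over the 250 bases before the start, at chr8:80058009-80058258 for Hhip and chr13:63565736-63565985 for Ptch1, both on the minus strand. The Ptch1 start used there lies inside the span given in the table. Capitals mark a 6-base core of the Gli motif.
Hhip: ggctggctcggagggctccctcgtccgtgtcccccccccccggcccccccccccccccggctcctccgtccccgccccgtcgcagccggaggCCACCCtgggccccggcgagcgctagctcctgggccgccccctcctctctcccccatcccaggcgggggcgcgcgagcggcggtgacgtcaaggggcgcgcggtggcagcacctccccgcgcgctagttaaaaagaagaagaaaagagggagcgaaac
Ptch1: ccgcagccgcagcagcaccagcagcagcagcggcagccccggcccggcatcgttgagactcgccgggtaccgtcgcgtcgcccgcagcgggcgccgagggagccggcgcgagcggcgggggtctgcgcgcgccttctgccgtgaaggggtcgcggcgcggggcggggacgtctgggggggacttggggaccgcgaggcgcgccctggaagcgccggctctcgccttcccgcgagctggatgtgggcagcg
The Gli motif GACCACCCA, searched on both strands, was in 0 of the 7 windows, and it was in 0.225% of all 32851 windows of that length. Its core CCACCC, which lies within it and was added after that search, was in 5 of the 7 windows on either strand, against 28.1% of all windows. In Hhip it began 158 bases before the start, and the Ptch1 window held none. Both stretches were rich in G and C, at 76.0% and 78.4%. The 7 windows ran from 58.8% to 78.4%. The share over all windows was not matched for G and C content, so the core counts cannot be read as an excess. A match is a description of letters in this window only.

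Gas1, a co-receptor tethered to the membrane by a lipid anchor, was the most abundant member and had the largest fold in the authors' table. Gas1 (ENSMUSG00000052957.7, chromosome 13, 60174405 to 60177365, mm10, minus strand), a gene of 1 exon, had 20621 and 2846 reads in the 32.0 M and 41.6 M positive libraries. It had 4641 and 7 reads in the 17.0 M and 74.0 M negative ones. These are 645 and 68.4 RPM against 273 and 0.0946. The groups overlapped, since the 17.0 M negative library lay above the 41.6 M positive one. The authors' deposited table gives a log2 fold of 4.31 (p = 0.00366, FDR 1.00). In limma on log2(RPM + 0.5) the fold was 4.05 with a standard error of 3.13 (adjusted p = 0.702), and it was -0.38 when the 74.0 M negative library was left out.

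Boc, a co-receptor of the immunoglobulin superfamily, followed the same order of libraries in the assignment used here. Boc (ENSMUSG00000022687.11, chromosome 16, 44485045 to 44558897, mm10, minus strand) had 1692 and 544 reads in the 32.0 M and 41.6 M positive libraries and 431 and 12 in the 17.0 M and 74.0 M negative ones. These are 53.0 and 13.1 RPM against 25.4 and 0.162. The 2 positive values were not settled by the tolerance on whole reads, which they missed narrowly. The other assignment gives 8.33 and 71.2 RPM, and the groups overlap under both. Its log2 fold was 1.12 in the authors' deposited table (p = 0.433, FDR 1.00). In limma on log2(RPM + 0.5) it was 2.70 with a standard error of 1.92 (adjusted p = 0.696), and 0.06 without the 74.0 M negative library.

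Smo, the membrane protein that passes the signal on, was found in all 4 libraries. Smo (ENSMUSG00000001761.7, chromosome 6, 29735503 to 29761365, mm10, plus strand) had 942 and 195 reads in the 32.0 M and 41.6 M positive libraries and 263 and 195 in the 17.0 M and 74.0 M negative ones. These are 29.5 and 4.69 RPM against 15.5 and 2.63. The groups overlapped, and the authors' deposited log2 fold was 0.61 (p = 0.667, FDR 1.00). In limma on log2(RPM + 0.5) the fold of 0.82 became -0.45 without the 32.0 M positive library and -0.36 without the 74.0 M negative one.

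The Gli factors did not follow Hhip. Gli1 (ENSMUSG00000025407.6, chromosome 10, 127329889 to 127341589, mm10, minus strand), the activator that is itself a target gene, had 515 and 102 reads in the 32.0 M and 41.6 M positive libraries. It had 192 and 7 in the 17.0 M and 74.0 M negative ones. These are 16.1 and 2.45 RPM against 11.3 and 0.0946, so the 17.0 M negative library came close to the highest positive one and the groups overlapped. The authors' deposited log2 fold of Gli1 was 0.95 (p = 0.503, FDR 1.00). In limma on log2(RPM + 0.5) it was 1.40, and -0.75 without the 74.0 M negative library. Gli1 overlaps Arhgap9 on the other strand, and whether the counting used strand is not given in the sources used here. Arhgap9 had 7103 reads in the 74.0 M negative library, where Gli1 had 7.

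Gli2 and Gli3, the factors that act first on signalling as activator and repressor, were read mainly in 2 libraries, 1 of each group. Gli2 (ENSMUSG00000048402.14, chromosome 1, 118834132 to 119053619, mm10, minus strand) had 372 and 25 reads in the 32.0 M and 41.6 M positive libraries and 138 and 0 in the 17.0 M and 74.0 M negative ones. These are 11.6 and 0.601 RPM against 8.13 and 0. Gli3 (ENSMUSG00000021318.15, chromosome 13, 15463235 to 15730026, mm10, plus strand) had 677 and 19 reads against 184 and 0, or 21.2 and 0.457 RPM against 10.8 and 0. In both genes the 41.6 M positive library lay far below the 17.0 M negative one, and the groups overlapped. The counts of 0 allow up to 0.0405 RPM (3 reads). The authors' deposited log2 folds were 0.06 for Gli2 (p = 0.968, FDR 1.00) and 0.15 for Gli3 (p = 0.919, FDR 1.00). In limma on log2(RPM + 0.5) Gli2 went from 0.82 to -0.92 without the 32.0 M positive library and to -1.24 without the 74.0 M negative one. Gli3 went from 0.94 to -1.32 in both cases.

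The order of levels between genes was compared per kilobase of merged exon (GENCODE M21), as the mean exon RPKM of each group's 2 libraries. In positive cells it was Gas1 at 121, Boc at 7.42, Smo at 3.04, Gli1 at 1.86 and Gli3 at 1.13, then Hhip at 0.892, Gli2 at 0.891, Ptch1 at 0.527 and Ihh at 0.447. In negative cells Gas1 stood at 46.2, Boc at 2.87, Smo at 1.61, Gli1 at 1.14, Gli2 at 0.592, Gli3 at 0.565, Ptch1 at 0.231, Hhip at 0.0341 and Ihh at 0.0290. The order of the first 4 was the same in both groups. Gas1 stood above every other member within each library except the 74.0 M negative one, where it was at 0.0319, below Smo (0.469), Ptch1 (0.346), Boc (0.0364) and Hhip (0.0357). In both groups every pair of neighbours in the order differed by less than the gap between libraries of at least 1 gene of the pair. In positive cells, for example, Smo stood at 5.24 and 0.834 and Gli1 at 3.23 and 0.491 in the 32.0 M and 41.6 M libraries. Within the 41.6 M positive library Hhip (0.760) lay above Gli1 (0.491), Gli2 (0.0875) and Gli3 (0.0476), while within the 32.0 M one Hhip (1.02) lay below all 3 (3.23, 1.69 and 2.21).

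**Figure D2:**
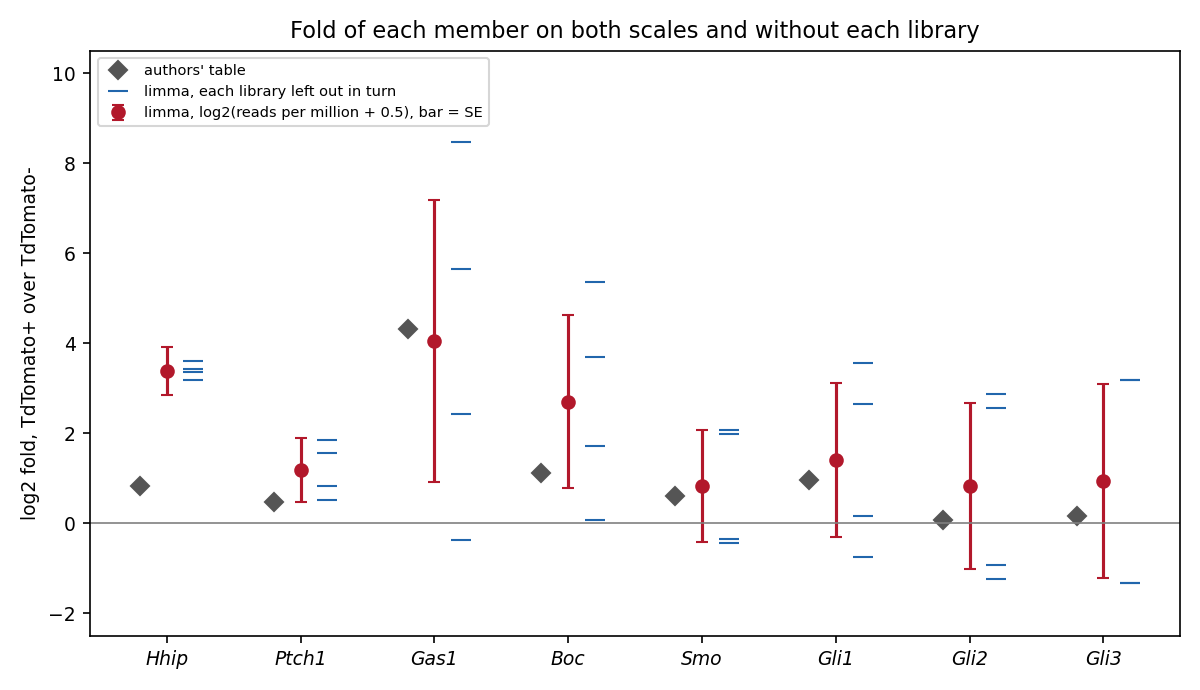
Log2 fold of the 8 members with at least 10 reads in 2 libraries: diamonds are the authors' deposited values, red circles are limma on log2(RPM + 0.5) with the standard error as bar (2 libraries per group), and dashes are the same fit with each library left out in turn. The dashes of Hhip lie between 3.19 and 3.60, those of Gas1 reach from -0.38 to 8.47.

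The members can be set beside the cell type markers of the same libraries. Relative to the 32.0 M positive library, Hhip stood at 74.2% in the 41.6 M positive library and at 3.17% and 3.49% in the 17.0 M and 74.0 M negative ones. Chondrocyte markers, over the assigned genes of that list, stood at 30.6%, 7.50% and 0.0444% in that order. Gas1 stood at 10.6%, 42.4% and 0.0147%, and fibroblast and tendon markers at 19.8%, 32.8% and 0.0715%. By these sums Gas1 and the fibroblast markers had the 17.0 M negative library above the 41.6 M positive one. Hhip and the chondrocyte markers had it below, as did the osteoblast markers (11.5% against 15.4%). Sums of assigned endothelial (133 against 141 RPM), skeletal muscle (17.2 against 59.2), leukocyte (297 against 1570) and erythroid markers (51.3 against 98.6) also had it below. The sum of smooth muscle and pericyte markers had it above (132 against 79.9). Having it below was thus not particular to the chondrocyte markers. In the assignment used, the first order held in 7 of the 8 fibroblast and tendon markers, not in Tnmd (72.7 against 92.5 RPM). The second held in 11 of the 12 chondrocyte markers. Outside the 74.0 M negative library, most of the chondrocyte sum was Comp and most of the fibroblast sum was Lum. Hapln1 and Matn3 were higher in the 41.6 M than in the 32.0 M positive library. Of the 12 chondrocyte markers 1 was at 0 reads in the 41.6 M positive library, 1 in the 17.0 M negative one and 3 in the 74.0 M negative one. The part of these markers in the Hhip difference was not tested. Per 1000 reads of the assigned fibroblast and tendon markers there were 4.51 and 17.0 reads of Hhip in the 32.0 M and 41.6 M positive libraries and 0.436 and 220 in the 17.0 M and 74.0 M negative ones. For Gas1 there were 313 and 168 against 404 and 64.2. Per 1000 reads of the assigned chondrocyte markers there were 4.85 and 11.8 reads of Hhip against 2.05 and 381. Per marker read, Hhip was thus highest in the 74.0 M negative library, where these markers were nearly at 0, and the groups overlapped.

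**Figure D3:**
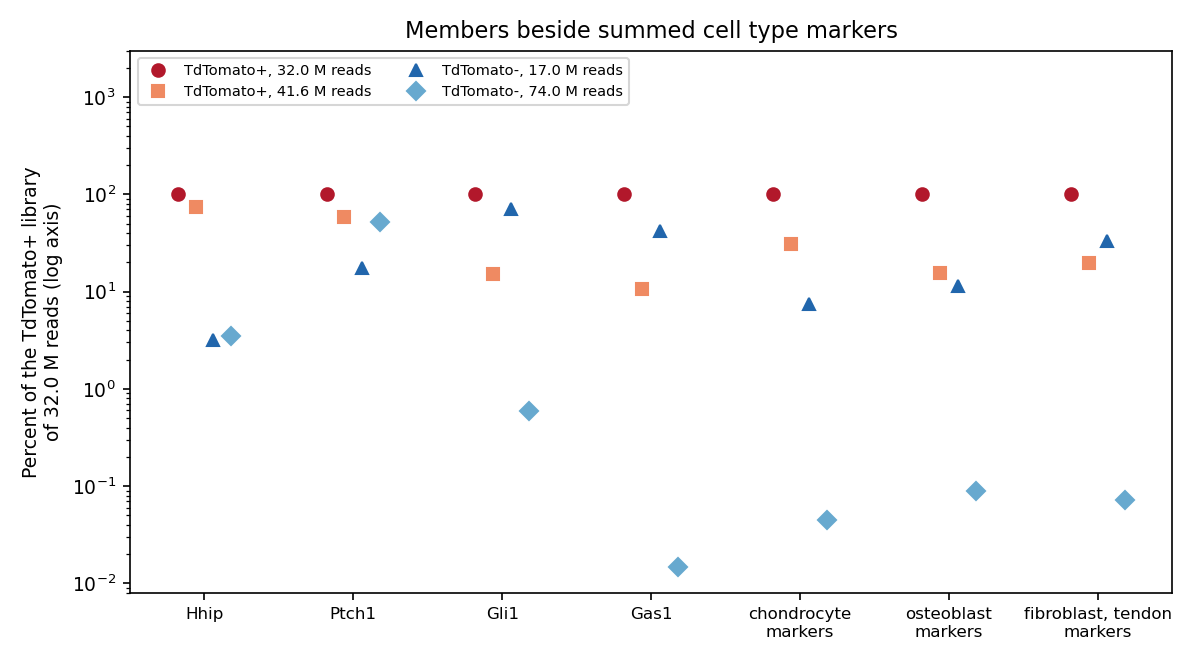
Levels of 4 members and summed levels of 3 marker lists (genes assigned to libraries only) in the 4 libraries, as percent of the level in the 32.0 M positive library (log axis). Hhip is at 74.2% in the 41.6 M positive library and at 3.17% and 3.49% in the negative ones, while Gli1, Gas1 and the fibroblast markers have the 17.0 M negative library above the 41.6 M positive one.

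The genes of nearest pattern were sought for the 3 assigned members with the most reads, over 4 libraries and 11641 other assigned genes. The measure was the root mean square distance between centred log2(RPKM + 0.1) profiles. For Gas1 they were Lum, a small proteoglycan of fibrous tissue that is also on the fibroblast and tendon list (0.408), Igfbp6, a binding protein of insulin-like growth factors (0.450), and Fibin (0.790). For Smo they were Nav1 (0.0419), Ankrd29 (0.0851) and 2700081O15Rik (0.0852), and for Ptch1 they were Tigd2 (0.0280), Ccdc88a (0.0319) and Ecsit (0.0354). Each profile has only 4 points.

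Other ligand genes were low. Dhh, another hedgehog ligand, had 66 and 12 reads in the 32.0 M and 41.6 M positive libraries and 28 and 0 in the 17.0 M and 74.0 M negative ones, fewer than Ihh in the 32.0 M library and more in the 41.6 M and 17.0 M ones. Shh had at most 1 read in the 32.0 M positive library and 0 in the others. Of the 8 genes of ligands and ligand release, 6 had enough reads, 0 passed the authors' FDR, 0 had an unadjusted p below 0.05, and the median log2 fold was 0.22. Scube1 and Scube2 belong to a family of secreted proteins that help release the lipid-bearing ligand. Scube1 stood at 12.6 and 11.3 RPM in the 2 positive libraries and at 3.77 and 0 in the 17.0 M and 74.0 M negative ones, with no overlap. Scube2 stood at 16.1 and 0.0240 against 5.71 and 0, so its groups overlapped.

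Further receptors showed no separation. Of the 5 genes on that list 4 had enough reads, 0 passed the FDR, 0 had an unadjusted p below 0.05 and 0 had groups that did not overlap. Over all 5 the median log2 fold in the authors' table was -0.03, with 2 above 0 and 3 below. That median lies near the -0.04 of a gene without reads. Cdon, the relative of Boc, stood at 35.9 and 4.04 RPM in the 32.0 M and 41.6 M positive libraries against 13.8 and 1.84 in the 17.0 M and 74.0 M negative ones. Gpc3, a glypican that binds hedgehog ligands, had a log2 fold of 0.69.

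Genes of the cilium and of the SuFu complex were mixed. All 15 had enough reads, 13 had a log2 fold above 0 in the authors' table, with a median of 0.52, and 0 passed the FDR or an unadjusted p of 0.05. In 6 of the 15 the positive libraries were above the negative ones without overlap, beside 22.6% of all genes with enough reads. Kif7, a kinesin of the ciliary tip that regulates Gli proteins, stood at 4.23 and 8.77 RPM in the 32.0 M and 41.6 M positive libraries against 0.471 and 0.297 in the 17.0 M and 74.0 M negative ones. Evc, a ciliary partner of Smo, stood at 29.8 and 9.78 against 4.12 and 0.0676. Arl13b, a small GTPase of the ciliary membrane, stood at 33.0 and 28.9 against 27.2 and 9.36, and Ift27, a part of the intraflagellar transport complex, at 32.3 and 13.1 against 10.6 and 12.6. Ift172 of the same complex overlapped, at 19.4 and 7.11 against 21.5 and 8.81. For Arl13b and Ift27 the counting intervals of the lower positive and the higher negative value overlapped. They were 27.3 to 30.6 and 24.8 to 29.8 for Arl13b, and 12.1 to 14.3 and 11.8 to 13.4 for Ift27. The log2 folds of Kif7 and Evc were 1.85 and 1.73 in the authors' deposited table (p = 0.194 and 0.225).

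Kinases and ubiquitin ligases that act on Gli proteins, which all cells use, pointed the other way. Of 10 genes 9 had a log2 fold below 0, with a median of -0.42, and 0 passed the FDR or an unadjusted p of 0.05. The negative libraries were above the positive ones without overlap in 5 of the 10, beside 19.0% of all genes with enough reads. Under every possible assignment of values to libraries this held for 2 of the 10, beside 13.1%. Itch, a ubiquitin ligase, stood at 48.7 and 87.8 RPM in the 17.0 M and 74.0 M negative libraries against 21.7 and 32.4 in the 32.0 M and 41.6 M positive ones. The other 4, Adrbk1, Arrb2, Spop and Prkar1a, had values that could not be assigned to libraries with certainty in at least 1 group. Adrbk1, a kinase of G protein-coupled receptors that also acts on Smo, had a log2 fold of -1.48, Arrb2, an arrestin, -1.02 and Prkar1a, the regulatory subunit of protein kinase A, -0.45.

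Published target genes other than the members were spread on both sides of 0. Of 14 genes 10 had a log2 fold above 0, with a median of 0.72. None passed the FDR (0 of 14) and 2 were higher at an unadjusted p below 0.05 in the authors' deposited table, Spp1, which encodes osteopontin, at 3.41 (p = 0.0232) and Rab34, a small GTPase of ciliogenesis, at 3.43 (p = 0.0180). Rab34 stood at 83.6 and 19.5 RPM in the 32.0 M and 41.6 M positive libraries against 28.3 and 0.0946 in the 17.0 M and 74.0 M negative ones, so its groups overlapped. Ccnd2, a cyclin, stood at 279 and 40.1 against 76.1 and 64.3 and had a log2 fold of 0.56. Both groups of Spp1 hold values not assigned with certainty.

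Genes of the loop between Ihh and parathyroid hormone-related protein, and of prehypertrophic cartilage, lay mostly above 0. Of 8 genes 6 had a log2 fold above 0 in the authors' table, with a median of 2.31, and 0 passed the FDR. The 2 with an unadjusted p below 0.05 in the authors' deposited table were Panx3, a channel protein of prehypertrophic cartilage, at 3.36 (p = 0.0180), and Pth1r, the receptor of parathyroid hormone-related protein, at 3.21 (p = 0.0242). Panx3 had 80 and 1141 reads in the 32.0 M and 41.6 M positive libraries and 0 in both negative ones. Its highest library was thus the one where Ihh had 0 reads. Pthlh, which encodes that hormone-related protein, stood at 95.5 and 14.9 RPM in the 32.0 M and 41.6 M positive libraries against 41.0 and 0.311 in the 17.0 M and 74.0 M negative ones. Its log2 fold of 2.26 in the authors' deposited table (p = 0.114, FDR 1.00) did not pass, and its groups overlapped. Sp7, a transcription factor of osteoblasts, stood at 27.5 and 8.44 against 7.25 and 0.203, with no overlap and a log2 fold in the authors' deposited table of 2.36 (p = 0.0985, FDR 1.00).

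**Figure D4:**
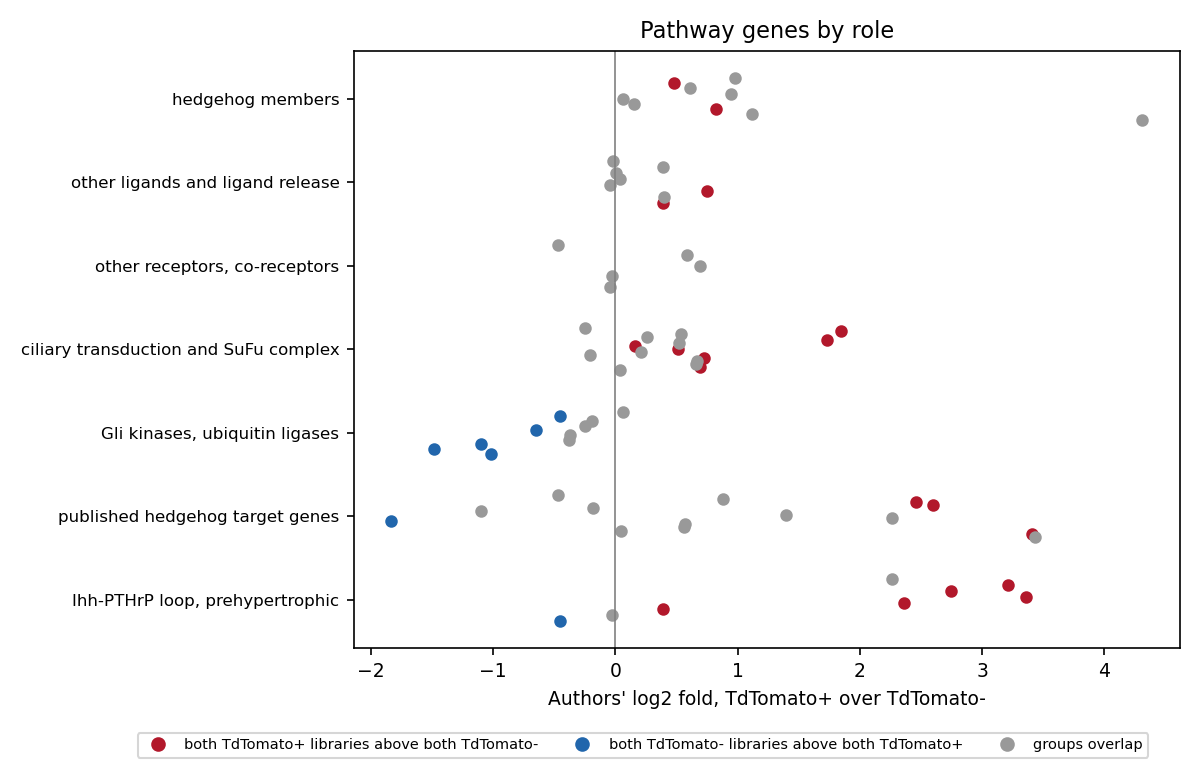
Authors' deposited log2 fold, TdTomato+ over TdTomato-, of every gene on the 7 pathway lists, 1 point per gene (a gene on 2 lists is drawn in both); colour shows whether the libraries of the groups overlap, with unassigned values in the assignment whose libraries differ less. All 9 members lie above 0, 9 of 10 kinases and ligases below 0, and separated genes (red) fall in several lists.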

How the data were processed

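RNA was measured in 4 libraries, TdTomato-positive and TdTomato-negative cells from each of 2 collections. Reads were mapped with STAR to mm10 and quantified in Partek, per the submitters' processing notes; no version is given in the sources used here. The authors deposited 1 table of their comparison. Per the file headers it holds each group's mean of a normalized signal, its sum and highest value over libraries (a score here), the natural log difference, the ratio and signed fold of the means, p-values and step-up FDR.

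Each of the 47643 genes gave 1 solution for its 4 values. Genes without reads fixed the depths and showed the scale: RPKM over the genomic span plus 0.1, divided by depth and span again. Scale and depths are inferred from the values. Values were assigned to libraries by whole reads, within 0.01 reads plus 1e-07 of the reads (at most 0.05), by a single whole value within 0.002 reads, or by excluding negative reads. Of 17122 genes with at least 10 reads in 2 libraries, 11642 (68.0%) were assigned; for others the assignment whose libraries differ less was taken. The solution was tested on simulated data with known values, built on the same scale and depths, so it does not test these. In the simulated data 100.0% of genes with enough reads were assigned, against 68.0% in the deposited values. It therefore does not cover the genes left unassigned. A table column left out of the solution, the Akaike criterion, stayed within 24.5 to 25.8 after 2 times the summed log values was taken off.

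The main test is the authors' deposited p-value and FDR, two-sided, at 0.05. Limma 3.58.1 (R 4.3.3) on log2 of the solved values was the alternative; RPM and exon lengths (GENCODE M21, 47224 genes matched) were added after the data were seen. Positive and negative cells of a collection come from the same mice, so libraries are paired by design, but no value names its collection, and both possible pairings were fitted. Members and gene lists were chosen with earlier results of these data known. Named genes are all members, list genes with an authors' p below 0.05, and in each list the 3 with the highest mean RPKM and the 2 with the largest fold among those with enough reads; Shh, Spop, Sox9, Foxf2, Foxc2 and Mycn, the overlapping Arhgap9 and the patterns near Hhip fall outside it and were named after their values were seen. A gene that the rule names is not reported here. The table's end position lies 1 base past the annotated end; ends are given 1-based.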

Additional observations from a re-analysis of the deposited data

How the results depend on the processing

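The count of 0 members called stayed 0 under the authors' FDR of 0.1 and under all 18 limma fits, and was 1 (Gas1) at the authors' unadjusted p of 0.05. Over all genes the authors' FDR called 3, their unadjusted p of 0.05 426, limma without a filter on reads 3 and each of the other 17 limma fits 0. With the replicate block, limma called 0 genes and 0 members under both possible pairings, on log2(RPKM + 1) and on log2(RPM + 0.5). On the latter scale Hhip had an adjusted p = 0.340 with the 32.0 M library paired to the 17.0 M one and an adjusted p = 0.889 with the other pairing. Over the limma fits with all 4 libraries the adjusted p of Hhip ran from 0.340 to 0.943. Its unadjusted p in those fits was below 0.05 only on 2 kinds of scale. These were the RPM and exon RPKM scales, added after the data were seen, and log2(RPKM + 1) without the filter on reads. In the same fits 2.87% to 13.8% of all genes tested were below 0.05. All fits use the same libraries, so they do not count as repeats.

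The number of members whose groups did not overlap was 2 among all and among assigned members. It ran from 2 to 9 with 1 library left out: 2 without the 32.0 M positive (31.5% of genes with enough reads) or the 74.0 M negative library (37.5%), Hhip and Ptch1 each time, 9 without the 41.6 M positive (45.2%) and 8 without the 17.0 M negative one (36.3%). The 9 include Boc in the assignment used, and Boc would not be counted there under the other assignment. Hhip, Ptch1 and Boc kept their direction in each alternative run, Hhip from 0.10 to 4.71, Ptch1 from 0.05 to 1.85 and Boc from 0.02 to 5.35 on the log2 scale. The other assignment of Boc was fitted only with all 4 libraries, on log2(RPKM + 1), where its fold was 0.35. The fits of Boc with 1 library left out rest on the assignment used. Ihh had too few reads for the limma filter. Limma folds on log2(RPKM + 1) turned negative without the 32.0 M positive library for Smo (-0.17), Gli1 (-0.22), Gli2 (-0.02) and Gli3 (-0.03). They did so without the 74.0 M negative library for Smo (-0.01), Gli1 (-0.21), Gli2 (-0.01) and Gas1 (-0.36). On log2(RPM + 0.5) they did so without the 32.0 M positive library for Smo (-0.45), Gli2 (-0.92) and Gli3 (-1.32). Without the 74.0 M negative one they did so for Smo (-0.36), Gli1 (-0.75), Gli2 (-1.24), Gli3 (-1.32) and Gas1 (-0.38). A fit that leaves a group with 1 library takes its spread from the other group.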

Other observations

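Genes of nearest pattern to Hhip were sought after its values were seen, by the same distance on log2(RPM + 0.5) over 4 libraries and 11641 other assigned genes. They were Slc16a4 (0.109), a member of the monocarboxylate transporter family, with 222 and 185 reads in the 32.0 M and 41.6 M positive libraries and 0 and 8 in the 17.0 M and 74.0 M negative ones, Kcna6 (0.183), a potassium channel, with 137 and 192 against 0 and 0, and Ak5 (0.207), an adenylate kinase, with 163 and 182 against 3 and 6.

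Of the 14 target genes, 3 had groups that did not overlap with positive cells above, and 2 of the 11 with enough reads, or 18.2% beside 22.6% of all such genes. They were Spp1, Foxf2 and Foxc2, of which Foxc2 had too few reads. Foxf2 had 117 and 129 reads in the 32.0 M and 41.6 M positive libraries and 3 and 7 in the 17.0 M and 74.0 M negative ones, and the authors' deposited table gives a log2 fold of 2.46 (p = 0.0838, FDR 1.00). Foxc2 had 278 and 2 reads against 0 and 0, so its separation rests on 2 reads. Mycn ran the other way, with 33 and 42 reads in positive cells and 98 and 315 in negative cells, or 1.03 and 1.01 RPM against 5.77 and 4.26.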
